A study of Mus musculus with 4 samples.

Results

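The genes described here are 48 genes of the cell division cycle, 27 that copy the DNA and 21 that carry out mitosis, among 23420 gene rows in the count tables. They were chosen by symbol, with no measured value in the rule but with earlier results of these data known. All 48 passed the filter on low counts, as did 14256 genes in all. RNA was sequenced from wild-type E14 cells, a mouse embryonic stem cell line kept without feeder cells on gelatin and in leukemia inhibitory factor (LIF). The control group is 2 libraries taken at 0 h, and the ATRA group is 2 libraries taken 24 h into treatment with 1 µM ATRA (all-trans retinoic acid), which binds and activates the nuclear receptors RARα, RARβ and RARγ. The micromolar dose is that of the titles and the treatment protocol, while a sample label gives a millimolar unit. The protocol names dimethylsulfoxide as vehicle and leaves unsaid whether it was added to the 0 h cells, and ATRA and 24 h of culture vary together. Nothing in the labels says that replicates were separate cultures, so each p-value rests on a spread between libraries that may be technical alone.

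Cells enter S phase after the origin recognition complex, Cdc6 and Cdt1 have loaded the MCM helicase onto replication origins, and Cdc45 and the GINS complex then turn the helicase on. Genes of this programme are classic targets of the E2F transcription factors. Mitosis genes reach their peak later, when the MuvB complex joins B-Myb and FoxM1 at a promoter element called the CHR, often near CCAAT boxes, whereas in resting cells the DREAM complex holds them down. Embryonic stem cells divide fast with a short first gap phase, and both programmes are highly expressed in them. RNA of a bulk culture was measured, so fewer cells in a phase of the cycle and less RNA per cell cannot be told apart.

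The promoters of the 2 sets carried different letters around the start site, and 5 stretches are shown because they hold the elements by which the sets are usually told apart. RefSeq promoter windows, 250 bases before to 50 after each start on GRCm38.p6, were matched for 22 of 27 replication genes (26 windows) and 17 of 21 mitosis genes (17 windows). The E2F letters were TTCCCGC, with C or G allowed as the third and as the fourth letter. Read on both strands, they were found in 69.2% of the replication windows, 17.6% of the mitosis windows and 9.57% of all 32851 windows. The CHR letters, TTTGAA with C also allowed as the third letter, were in 19.2%, 76.5% and 19.2% of them, and CCAAT in 61.5%, 82.4% and 37.4%. An E2F match and a CHR match shared a window in 2 replication and 2 mitosis genes' windows, and in 1 window of each set every E2F match shared bases with CCAAT. The stretches below are the 120 bases before the start, 5′ to 3′ on the gene's strand, with the E2F, CHR and CCAAT letters of either strand in capitals. They lie at chr1:128359706-128359825 (Mcm6, minus strand), chr7:102441575-102441694 (Rrm1, plus), chr7:135716380-135716499 (Mki67, minus), chr11:99024190-99024309 (Top2a, minus) and chr19:37376262-37376381 (Kif11, plus).
Mcm6: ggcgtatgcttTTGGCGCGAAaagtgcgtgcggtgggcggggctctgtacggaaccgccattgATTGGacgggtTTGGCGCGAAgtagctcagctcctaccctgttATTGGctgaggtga
Rrm1: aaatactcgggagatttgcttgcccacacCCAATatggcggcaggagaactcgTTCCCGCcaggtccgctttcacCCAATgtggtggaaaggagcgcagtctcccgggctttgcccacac
Mki67: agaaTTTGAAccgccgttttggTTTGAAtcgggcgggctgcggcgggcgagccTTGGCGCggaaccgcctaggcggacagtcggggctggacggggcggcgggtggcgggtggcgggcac
Top2a: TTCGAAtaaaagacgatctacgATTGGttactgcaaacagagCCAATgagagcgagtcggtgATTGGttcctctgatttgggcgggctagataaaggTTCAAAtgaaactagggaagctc
Kif11: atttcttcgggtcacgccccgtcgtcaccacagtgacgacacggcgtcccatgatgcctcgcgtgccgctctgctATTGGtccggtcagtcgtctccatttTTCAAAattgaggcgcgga
The helicase gene Mcm6 and the ribonucleotide reductase gene Rrm1 show E2F and CCAAT letters. The topoisomerase gene Top2a and the spindle motor gene Kif11 show CHR and CCAAT letters. Mki67, the gene of the proliferation antigen Ki-67, shows CHR and E2F letters in this stretch. Its CCAAT letters lie outside the stretch, 188, 166 and 141 bases before the start. A match describes the sequence and is not a bound site.

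Depth differed between the groups. Counts in genes came to 31005634 and 21484812 in the controls and to 13337972 and 11086233 with ATRA, and a count of 3 stands for 0.0968 to 0.271 CPM (counts scaled to library size, with TMM factors). Member counts ranged from 90 for Gins2 to 42422 for Top2a, far above that floor. Replicates differed by more than sampling noise in both groups (chi-square per degree of freedom 9.65 for controls and 76.9 for ATRA). Treatment labels were checked with 4 retinoic acid targets, Rarb, Stra8, Hoxb1 and Cyp26a1, all higher with ATRA by 4.94 to 7.80 on the log2 scale (edgeR adjusted p at most 0.0179). The stem cell label was checked with 11 markers, 0 of which were at 0 in all libraries, and whose summed level was 4530 to 4550 CPM in the controls and 2670 to 2720 with ATRA. Of these 11, 2 were above 0 and 9 below (median log2 fold change −0.96). Uncorrected, 3 passed, all lower (Zfp42, Esrrb and Utf1), beside 1.13% of all genes. After GC correction 7 passed as lower (Pou5f1, Nanog, Zfp42, Esrrb, Tdgf1, Fgf4 and Utf1) and 1, Lin28a, as higher, beside 16.2%. Summed levels of 10 fibroblast markers were 192 to 256 CPM in the controls and 127 to 149 CPM with ATRA, with Col1a1 going from 141 and 91.9 to 40.1 and 24.1 CPM. Of the 9 tested, 5 were above 0 and 4 below (median log2 fold change 0.09, and 0.82 after GC correction). Uncorrected, 0 of these 9 passed. After correction 3 did, all higher (Pdgfra, Pdgfrb and Dcn), beside 16.2% of all genes. Across libraries, counts were 29 to 46 for Pdgfra and 29 to 109 for Dcn. For 10 primitive endoderm markers the summed levels were 27.1 to 27.7 and 56.5 to 84.8 CPM, with Ttr at 0 in every library and 4 of the 10 under 1 CPM throughout. All 6 tested were above 0 (median log2 fold change 1.90, and 2.06 after GC correction). Uncorrected, 0 of them passed, and after correction 5 did, all higher (Gata4, Gata6, Sox7, Dab2 and Pdgfra), beside 16.2% of all genes. For 10 neuron markers the summed levels were 493 to 520 and 279 to 301 CPM, mostly from Stmn2 (209 to 380 CPM), with 4 above 0 and 6 below. Their median log2 fold change was −0.71, and −0.12 after GC correction. Uncorrected, Dcx passed as higher (log2 fold change 3.64, edgeR adjusted p = 0.0472) and Tubb3 as lower (−2.80, 0.0498), beside 1.13% of all genes. Dcx had counts of 9 and 10 in the controls and 47 and 56 with ATRA. After GC correction Dcx passed as higher and 3 as lower (Tubb3, Stmn2 and Neurod1), beside 16.2% of all genes. The part of such cells in the results was not tested.

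Without any correction, the mitosis genes lay higher with ATRA and the replication genes were split, and neither set held a gene that passed the test. The median log2 fold change (ATRA over control) was 0.62 over the 21 mitosis genes and 0.10 over the 27 replication genes, against −0.02 over all 14256 genes. Of the mitosis genes 14 were above 0 and 7 below, and of the replication genes 14 and 13. By the quasi-likelihood F test of edgeR, adjusted by Benjamini and Hochberg over all genes, 0 of 48 members had an adjusted p under 0.05, where 1.13% of all tested genes did. The smallest adjusted p was 0.0637, for the polymerase gene Pold1, and among mitosis genes 0.0738, for Mki67. An unadjusted p under 0.05 was found for 22 members, 11 of each set, beside 41.7% of all genes, and DESeq2's Wald test called 8 replication and 7 mitosis genes, beside 30.5%. Both ATRA libraries lay above both controls for 25 members (40.0% of all genes) and below both for 17 (41.5% of all genes). By set, 12 of 27 replication genes lay above and 12 below, and 13 of 21 mitosis genes lay above and 5 below. The mitosis genes thus held a larger share above, and a smaller share below, than all genes. The replication shares were nearer those of all genes, and no such difference was tested.

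**Figure D1:**
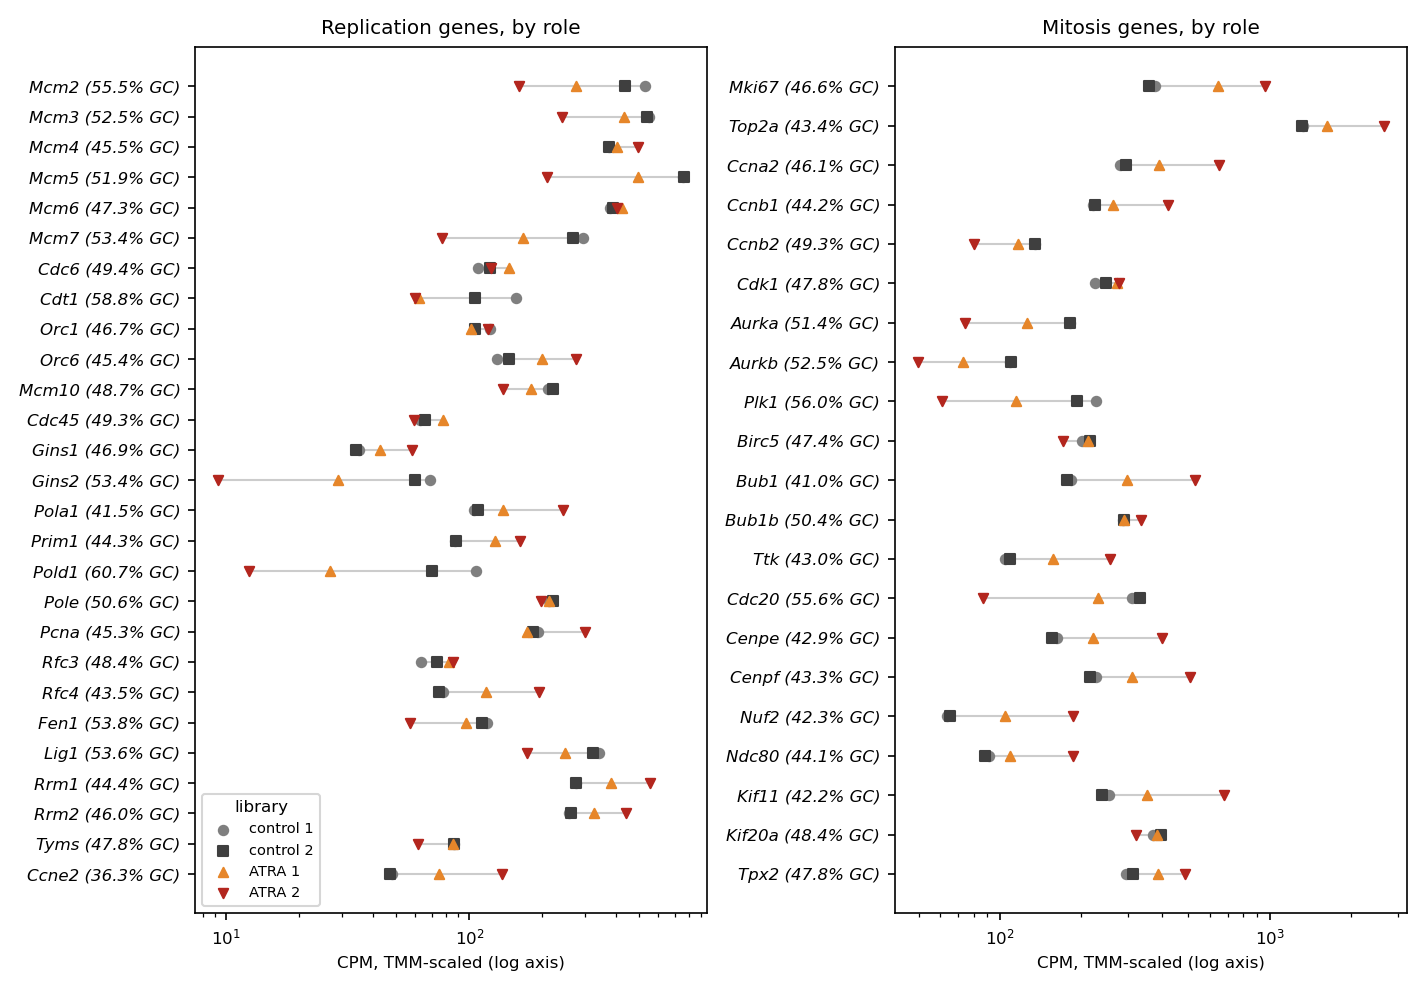
Level of each member in the 4 libraries (CPM on a log axis, TMM-scaled, no error bars since each point is 1 library), with transcript GC content beside each symbol; grey lines join the lowest and highest library. The controls mostly coincide, while ATRA replicate 2 lies beyond ATRA replicate 1 for many genes, up to 2650 CPM for Top2a and down to 9.28 CPM for Gins2.

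Most of the distance came from a single library. Measured as the median over genes of the log2 level against the control mean, the mitosis genes stood at 0.28 in ATRA replicate 1 and 0.92 in ATRA replicate 2 (SD between these libraries 0.45), and the replication genes at −0.01 and 0.06 (SD 0.05). The difference of the medians, mitosis minus replication, was 0.29 in ATRA replicate 1 and 0.86 in ATRA replicate 2 (SD 0.40). The ATRA replicates therefore differed by more than the smaller of these contrasts. Summed over genes, the mitosis set had 5630 and 5660 CPM in the controls and 6670 and 9360 CPM with ATRA. The replication set had 5750 and 5560 CPM in the controls and 5130 and 5050 CPM with ATRA. The ratio of the sums, mitosis over replication, was 0.979 and 1.02 in the controls and 1.30 and 1.85 with ATRA. With 2 libraries against 2, no permutation of such a single value can reach a p under 0.05, and none is given.

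Transcript GC content moved with these fold changes. Across the 48 members, the correlation of the uncorrected log2 fold change with GC content was −0.92 (Pearson) and −0.93 (Spearman), and across 14146 genes −0.67 and −0.75. These are correlations across genes of the same 4 libraries, which are not independent replicates. Members under 45% GC had a median log2 fold change of 0.83 (5 replication genes) and 0.94 (9 mitosis genes), beside 0.89 for all genes of that content. Between 45% and 50% the medians were 0.24 (12 replication genes), 0.21 (7 mitosis genes) and 0.34 (all genes). At 50% and over they were −1.11 (10 replication genes), −0.86 (5 mitosis genes) and −0.85 (all genes). In each range the medians of both sets had the sign of the median of all genes, and the mitosis set holds more genes of low content (median 46.6%, against 48.4% for replication and 50.2% for all genes). The ranges were chosen after seeing the data.

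**Figure D2:**
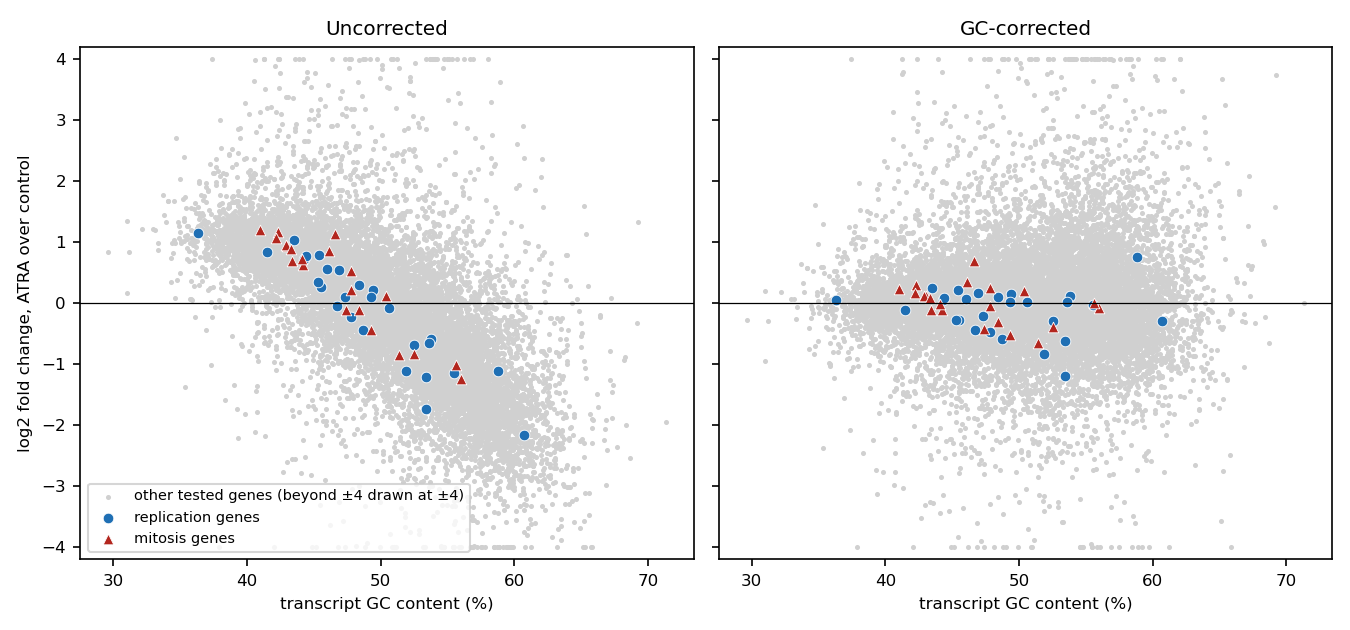
Log2 fold change, ATRA over control, against transcript GC content (%) for the replication genes (blue circles), the mitosis genes (red triangles) and all other tested genes (grey), uncorrected on the left and GC-corrected on the right. The members follow the slope of all genes on the left (Pearson −0.92 over 48 members), and on the right their medians are 0.02 for replication and 0.00 for mitosis.

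A correction that fits each library's deviation along GC content and enters it as an offset left the medians of the sets near 0. After it, the correlation of the log2 fold change with GC content over all genes was 0.03 (Pearson) and 0.00 (Spearman), while the members kept −0.25 and −0.35, and the mitosis genes among them −0.41 and −0.47. The correction takes out any difference between libraries that follows GC content, whether from the assay or from the treatment. The median was 0.02 for the replication genes and 0.00 for the mitosis genes, against 0.01 over all genes, and 12 members changed sign. The difference mitosis minus replication was then 0.08 in ATRA replicate 1 and 0.14 in ATRA replicate 2. The ratio of the corrected sums, mitosis over replication, was 1.16 and 1.17 in the controls and 1.28 and 1.46 with ATRA. The corrected replication sums were 5560 and 5460 CPM in the controls and 5060 and 4640 CPM with ATRA. Those of the mitosis genes were 6450 and 6410, and 6470 and 6760 CPM. These differences were not tested. Of the 48 members 1 passed (Mki67, higher), beside 16.2% of all genes, and 13 had an unadjusted p under 0.05, beside 38.2%. Both ATRA libraries lay above the controls for 13 members (35.5% of all genes) and below for 19 (34.8% of all genes). Split by set, 6 replication genes lay above and 12 below, and 7 mitosis genes above and 7 below. An unadjusted p under 0.05 was found for 0 higher and 6 lower replication genes, and for 4 higher and 3 lower mitosis genes. The difference between the sets in these counts was not tested. For 40 of the 48 members, 21 replication and 19 mitosis genes, the 95% interval of the fold change lay inside a 2-fold change either way, as it did for 52.1% of all genes. Uncorrected, that held for 12 members and for 13.0% of all genes. The 8 other members, whose intervals reach past 2-fold, were Mcm5, Mcm7, Cdt1, Mcm10, Gins2, Tyms, Ccnb2 and Aurka.

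**Figure D3:**
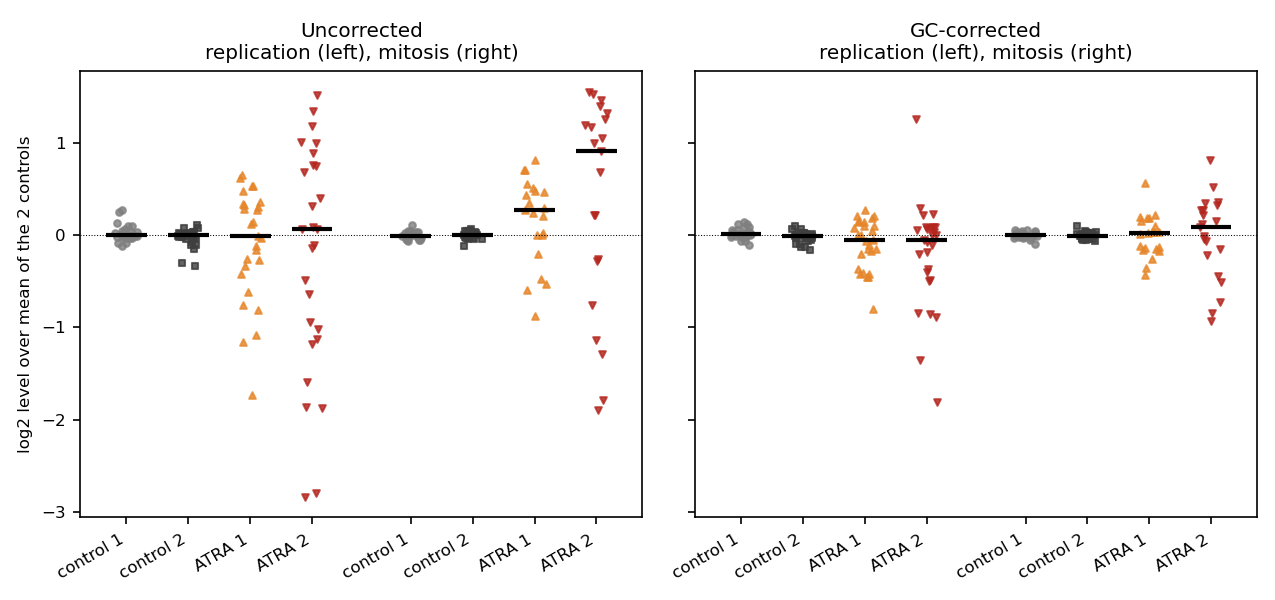
Log2 level of each member over the mean of the 2 controls, by library, uncorrected on the left panel and GC-corrected on the right; each point is 1 gene and the bar is the median of the set. Uncorrected, the mitosis medians are 0.28 and 0.92 in the ATRA libraries and the replication medians −0.01 and 0.06, and GC-corrected they are 0.02 and 0.08, and −0.06 and −0.06.

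Calls of members rested on which libraries were used. Without ATRA replicate 1, 21 replication and 20 mitosis genes passed, beside 69.0% of all genes, and without ATRA replicate 2, 17 and 16 passed, beside 48.9%. In the GC-corrected fit these counts were 12 and 13 (45.0% of all genes) and 9 and 4 (33.2%). Without control replicate 2, Pold1 alone passed, lower with ATRA, among the members (4.59% of all genes), and 0 did in the GC-corrected fit (0.173%). Without control replicate 1, 0 members passed in either fit (0.874% and 0.245% of all genes). The lone library of a group is assumed in these fits to vary like the other group.

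The MCM helicase, 6 related subunits that form a ring and unwind the DNA, had the lowest median log2 fold change of the replication groups, −0.90, and −0.28 after GC correction, where all 6 were below 0 and 0 passed. Mcm5, the most abundant of them per length (225 CPM per kb of transcript in the controls), had 757 and 765 CPM in the controls and 496 and 208 CPM with ATRA. Both ATRA libraries lay below both controls. Its log2 fold change was −1.11 (SE 0.44, edgeR adjusted p = 0.116), and −0.84 (SE 0.29, 0.0986) after GC correction. Mcm7 had 295 and 267 CPM in the controls and 166 and 77.2 CPM with ATRA, again without overlap. It stood at −1.21 (SE 0.41, edgeR adjusted p = 0.0910), and at −0.63 (SE 0.17, 0.0640) after correction. Mcm2 showed how far the correction reached, from −1.14 to −0.04, and at 55.5% its GC content is the highest of the 6. Mcm4 and Mcm6 went from 0.27 and 0.10 to −0.28 and −0.22.

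Of the 8 genes that license and fire origins, 4 were above 0 and 4 below, with a median of 0.03, and 0.09 after GC correction. Gins2, a subunit of the GINS complex, had the largest difference after correction of all 48 members. It had 68.8 and 59.6 CPM in the controls and 28.8 and 9.28 CPM with ATRA. The log2 fold change was −1.74 (SE 0.54, edgeR adjusted p = 0.0823), and −1.20 (SE 0.33, 0.0627) after GC correction, with a 95% interval from −2.03 to −0.38. Its exons share 67.3% of their bases with Gse1 on the opposite strand, and without a stated strand setting reads of the pair cannot be told apart. Its partner Gins1 was at 0.54 uncorrected and 0.16 corrected (edgeR adjusted p 0.196 and 0.409). Orc6, a subunit of the origin recognition complex and the most abundant of the group per length (94.0 CPM per kb in the controls), had 130 and 145 CPM in the controls and 199 and 274 CPM with ATRA. The groups did not overlap, and its value was 0.78 (SE 0.29, edgeR adjusted p = 0.102), or 0.21 (SE 0.10, 0.173) after correction. Orc1, the large subunit, was at −0.05 and −0.45 (edgeR adjusted p 0.900 and 0.0642), and Mcm10, which joins the helicase at firing, at −0.44 and −0.59 (0.244 and 0.0710). Cdt1, the loading factor, went from −1.11 to 0.75, and its corrected ATRA libraries were 71.4 and 170 CPM, so its corrected value has a wide interval from −0.27 to 1.77.

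Among the 9 polymerase, clamp and ligation genes the median was 0.29, and 0.02 after GC correction, where all 9 intervals lay inside a 2-fold change. Pold1, the catalytic subunit of polymerase delta, had 107 and 70.3 CPM in the controls and 26.7 and 12.4 CPM with ATRA. That was the lowest uncorrected log2 fold change of the members, −2.17 (SE 0.46, edgeR adjusted p = 0.0637). At 60.7% its GC content is the highest of the 48, and after correction it stood at −0.30 (SE 0.15, 0.207). Pola1, the catalytic subunit of polymerase alpha, had the opposite pattern at 41.5% GC, with 105 and 109 CPM in the controls and 137 and 243 CPM with ATRA. It went from 0.83 (SE 0.35, edgeR adjusted p = 0.125) to −0.11 (SE 0.10, 0.442). Rfc4, a subunit of the clamp loader, had 77.6 and 75.2 CPM in the controls and 117 and 194 CPM with ATRA, a log2 fold change of 1.03 (SE 0.33, edgeR adjusted p = 0.0848), or 0.24 (SE 0.10, 0.149) corrected. Its exons share 12.7% of their bases with Eif4a2 on the opposite strand. Pcna, the sliding clamp and the most abundant per length (123 CPM per kb in the controls), had 192 and 182 CPM in the controls and 172 and 300 CPM with ATRA. Here the ATRA libraries lay on either side of the controls, and the value was 0.34 (SE 0.34, edgeR adjusted p = 0.457), or −0.27 (SE 0.14, 0.215) corrected. Pcna and the thymidylate synthase gene Tyms have named pseudogenes, so their counts are less certain. So are those of Fen1, the flap endonuclease gene, whose exons share 78.8% of their bases with Gm10143 on the opposite strand.

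The 3 genes of nucleotide supply and the S phase cyclin gene did not pass either. Rrm2, the regulated subunit of ribonucleotide reductase, had 258 and 262 CPM in the controls and 326 and 441 CPM with ATRA. Its value was 0.56 (SE 0.28, edgeR adjusted p = 0.169), and 0.06 (SE 0.09, 0.623) after GC correction. Rrm1, the large subunit, was at 0.77 and 0.09, and Tyms at −0.23 and −0.48. Ccne2, the cyclin E2 gene that drives entry into S phase, had the largest uncorrected value of the replication genes. It had 48 and 47.2 CPM in the controls and 75.0 and 136 CPM with ATRA, a log2 fold change of 1.15 (SE 0.36, edgeR adjusted p = 0.0823). At 36.3% its GC content is the lowest of the 48, and after correction its libraries overlapped, at 0.05 (SE 0.11, 0.768). Its exons share 17.4% of their bases with Ints8 on the opposite strand.

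Mki67 was the only member that passed in the GC-corrected fit. The gene, on the minus strand of chromosome 7 between 135689784 and 135716361 (GRCm38, GENCODE M21), encodes Ki-67, a protein that coats mitotic chromosomes and marks dividing cells. It had 377 and 356 CPM in the controls and 645 and 965 CPM with ATRA. Both ATRA libraries were above both controls, also after GC correction, at 440 and 407 against 625 and 742 CPM. Uncorrected, its log2 fold change was 1.13 (SE 0.31, edgeR adjusted p = 0.0738). After GC correction it rose by 0.69 (SE 0.12, 95% interval 0.40 to 0.99, edgeR adjusted p = 0.0269), a 1.61-fold change. Mki67 was also called by DESeq2's Wald test (30.5% of all genes). With the replicate number as a block it was called uncorrected (30.9%) and corrected (18.6%). Corrected and without control replicate 1 or 2, it was at 0.74 and 0.63 and did not pass (edgeR adjusted p = 0.213 and 0.231). Among all 14146 genes with a GC value its content, 46.6%, is below the median of 50.2%. Top2a, topoisomerase II alpha, which untangles sister chromatids, was the most abundant mitosis gene per length (254 CPM per kb in the controls). It had 1330 and 1320 CPM in the controls and 1630 and 2650 CPM with ATRA. The separation of the groups turned over with the correction, from 0.69 (SE 0.33, edgeR adjusted p = 0.159) to −0.11 (SE 0.08, 0.387), and its corrected interval ran from −0.31 to 0.10. Mki67 and Top2a are both used as markers of dividing cells, and the difference between them was not tested.

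**Figure D4:**
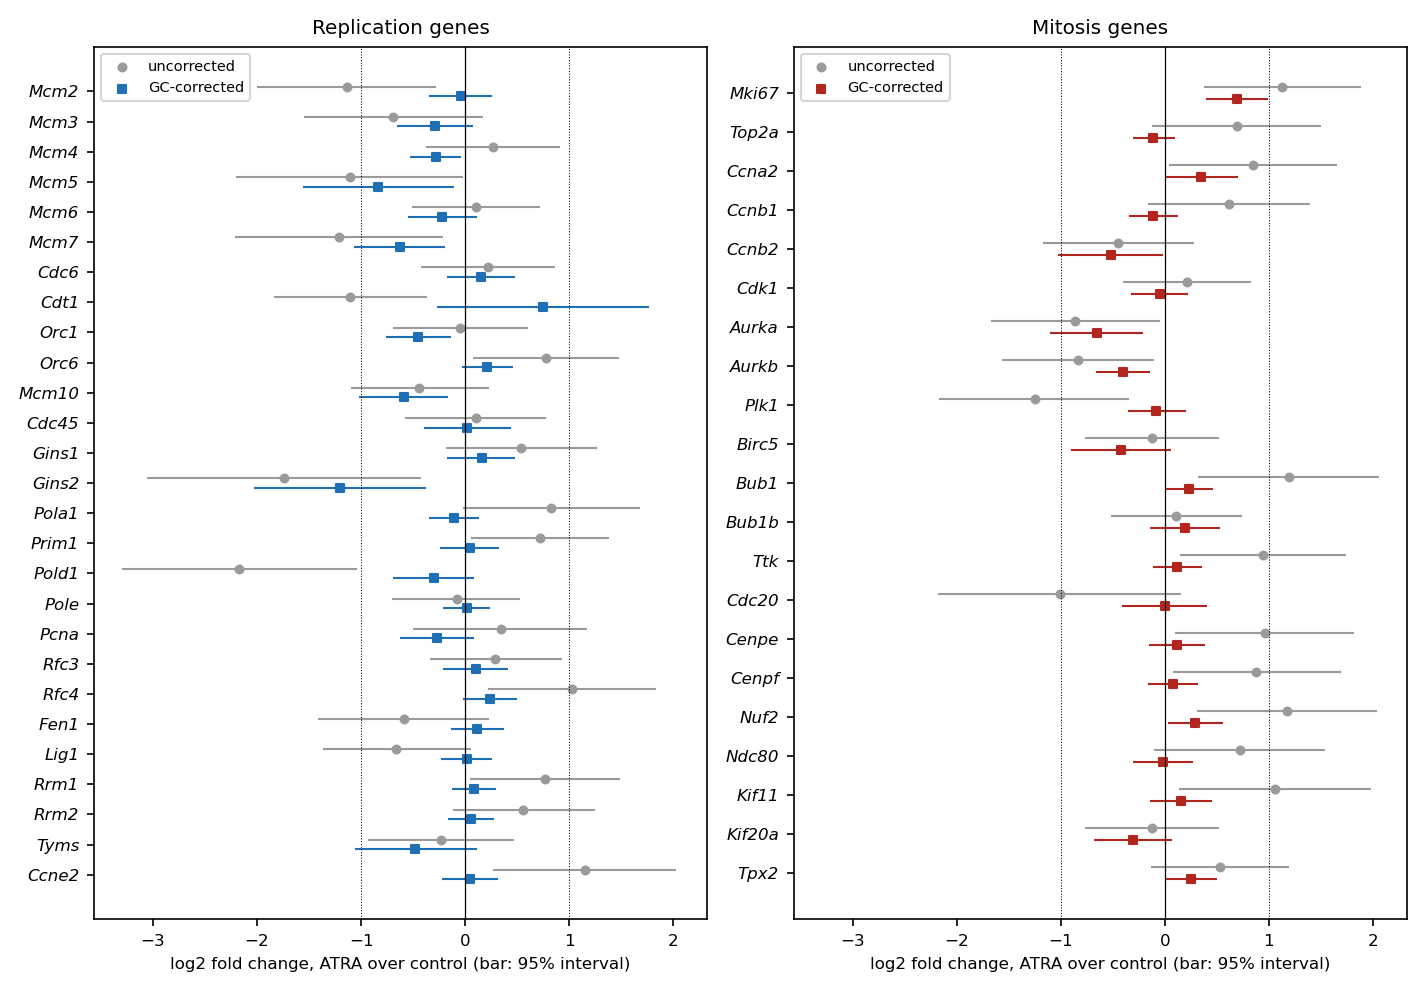
Log2 fold change, ATRA over control, of each member with its 95% interval, uncorrected (grey circles) and GC-corrected (coloured squares); dotted lines mark a 2-fold change either way. Corrected intervals are narrower, except for Cdt1, and 40 of 48 lie between the dotted lines, with Mki67 at 0.69 the highest of the mitosis genes and Gins2 at −1.20 the lowest of all.

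The cyclin and Cdk1 genes, whose products start mitosis, had a median of 0.42, and −0.08 after GC correction. Ccna2, the cyclin A2 gene and the most abundant of them per length (96.8 CPM per kb in the controls), had 280 and 294 CPM in the controls and 389 and 647 CPM with ATRA. It was at 0.85 (SE 0.33, edgeR adjusted p = 0.111), and 0.35 (SE 0.14, 0.132) after correction, and its libraries did not overlap in either case. Its exons share 12.5% of their bases with Exosc9 on the opposite strand. The cyclin B genes differed in sign uncorrected, Ccnb1 at 0.62 and Ccnb2 at −0.45, and stood at −0.11 and −0.52 after correction. Both have named pseudogenes, so their counts are less certain. Cdk1, the mitotic kinase itself, was at 0.21 and −0.05 (edgeR adjusted p 0.519 and 0.759).

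The mitotic kinases and the passenger gene Birc5 were the only mitosis group with all members below 0 in both fits, and 0 of the 4 passed. The median was −0.85, and −0.41 after GC correction. Aurka, which matures centrosomes, had 182 and 182 CPM in the controls and 126 and 74.4 CPM with ATRA. Its value was −0.86 (SE 0.33, edgeR adjusted p = 0.110), and −0.65 (SE 0.18, 0.0622) after correction, and both ATRA libraries stayed below both controls. Aurkb, the kinase of the chromosomal passenger complex, was at −0.83 (edgeR adjusted p = 0.0980) and −0.40 (0.0580). Plk1, the polo-like kinase, had 227 and 194 CPM in the controls and 115 and 61.0 CPM with ATRA, the lowest uncorrected value of the mitosis genes, −1.25 (SE 0.37, edgeR adjusted p = 0.0800). At 56.0% GC it had overlapping libraries after correction, with a value of −0.08 (SE 0.11, 0.633). Birc5, survivin, was at −0.12 and −0.42.

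Spindle checkpoint and anaphase genes had a median of 0.53, and 0.16 after GC correction. Bub1, a checkpoint kinase, had the largest uncorrected value of the mitosis genes, with 184 and 177 CPM in the controls and 295 and 530 CPM with ATRA. It was at 1.19 (SE 0.35, edgeR adjusted p = 0.0798), and 0.23 (SE 0.09, 0.125) after correction. Its paralog Bub1b was at 0.11 and 0.19, and the checkpoint kinase gene Ttk at 0.94 and 0.12. Cdc20, the activator of the anaphase-promoting complex and the most abundant of the group per length (179 CPM per kb in the controls), had 309 and 331 CPM in the controls and 231 and 86.4 CPM with ATRA. Its value was −1.01 (SE 0.48, edgeR adjusted p = 0.154), and 0.00 (SE 0.16, 1.00) after correction.

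All 4 kinetochore genes, with GC contents of 42.3% to 44.1%, were above 0 uncorrected. Their median was 0.92, beside 0.89 for all genes under 45% GC. For each of the 4, both ATRA libraries lay above both controls, as they did for 40.0% of all genes. After GC correction the median was 0.10, and 3 of the 4 sets of libraries overlapped. Nuf2, a subunit of the microtubule-binding NDC80 complex, had 63.9 and 65.4 CPM in the controls and 105 and 187 CPM with ATRA. It was at 1.17 (SE 0.35, edgeR adjusted p = 0.0802), and 0.29 (SE 0.11, 0.109) after correction, where its libraries still did not overlap. Ndc80, its partner and the most abundant of the group per length (40.9 CPM per kb in the controls), had 91.5 and 88.5 CPM in the controls and 109 and 187 CPM with ATRA. It went from 0.72 (SE 0.33, edgeR adjusted p = 0.151) to −0.02 (SE 0.11, 0.915). Cenpe and Cenpf were at 0.96 and 0.88 uncorrected and at 0.12 and 0.08 corrected.

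Of the spindle genes, Kif20a, a motor of the central spindle and the most abundant per length (104 CPM per kb in the controls), had 370 and 395 CPM in the controls and 383 and 320 CPM with ATRA. The groups overlapped, at −0.12 (SE 0.26, edgeR adjusted p = 0.724), and the corrected value was −0.31 (SE 0.15, 0.188). Its exons share 29.3% of their bases with Cdc23 on the opposite strand. Kif11, the motor that separates spindle poles, was at 1.06 and 0.16, and Tpx2, the spindle assembly factor that activates Aurora A, at 0.53 and 0.25.

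Other genes of the same pathways, from lists that exclude the 48, were read in the same fits. Of 42 further replication genes, 0 passed in the uncorrected edgeR fit, 14 had an unadjusted p under 0.05, and the median was 0.26 (DESeq2 called 9). Of 53 further mitosis genes, 0 passed, 29 had an unadjusted p under 0.05, and the median was 0.64 (DESeq2 called 18). Over all genes these shares were 1.13%, 41.7% and 30.5%, and 16.2% passed after GC correction. After GC correction the medians were 0.05 and 0.06. Of these replication genes, Rpa1, which covers single-stranded DNA, then rose (0.76, edgeR adjusted p = 0.0132), and the thymidine kinase gene Tk1 fell (−1.34, 0.0267). Uncorrected they were at 0.89 and −2.31 (edgeR adjusted p = 0.0778 and 0.0664). Among the mitosis genes 4 rose and 2 fell. Those that rose were the kinetochore gene Spc25 (0.90, edgeR adjusted p = 0.0349), the phosphatase gene Cdc25b (0.76, 0.0314), the spindle gene Tacc3 (0.59, 0.0375) and the chromokinesin gene Kif4 (0.56, 0.0452, named after its value was seen). Uncorrected, Spc25 was at 1.51, Cdc25b at −0.04, Tacc3 at 0.11 and Kif4 at 0.79 (edgeR adjusted p = 0.0688, 0.938, 0.759 and 0.0969), so the sign of Cdc25b turned over. Those that fell were the separase gene Espl1 (−0.69, 0.0371) and Fbxo5 (−0.50, 0.0324), whose product inhibits the anaphase-promoting complex. Uncorrected, Espl1 was at −1.80 and Fbxo5, with the opposite sign, at 0.12 (edgeR adjusted p = 0.0737 and 0.758). Few of all genes passed in the corrected fit without a control replicate, as given above. Corrected and without either control replicate, 0 genes of these lists passed.

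Among 19 genes listed as E2F, DREAM and FoxM1 regulators, 0 passed in the uncorrected edgeR fit. Their median was 0.22, 10 had an unadjusted p under 0.05, and DESeq2 called 8. After GC correction 3 rose and 1 fell (median −0.04). The shares of all genes were 1.13%, 41.7% and 30.5%, and 16.2% after correction, so the corrected count of 4 in 19 is near that of all genes. Mybl2, which encodes B-Myb, had 325 and 296 CPM in the controls and 86.0 and 32.6 CPM with ATRA. Both ATRA libraries lay below both controls, also corrected, at 197 and 196 against 92.2 and 75.3 CPM. Its uncorrected value was −2.38 (edgeR adjusted p = 0.0625), and after correction its log2 level fell by 1.23 (SE 0.13, edgeR adjusted p = 0.0111). Foxm1, its partner at mitosis promoters, had 125 and 117 CPM in the controls and 112 and 78.1 CPM with ATRA. It was at −0.34 uncorrected (edgeR adjusted p = 0.380) and rose by 0.59 after correction (SE 0.14, 0.0479), so its sign turned over. E2f5, a repressive E2F, rose by 0.68 (SE 0.15, edgeR adjusted p = 0.0414) and Rb1, the retinoblastoma gene, by 0.62 (SE 0.12, 0.0344) after correction. Uncorrected they were at 1.10 and 1.56 and did not pass (edgeR adjusted p = 0.0782 and 0.0662). In the corrected fit without ATRA replicate 1 or 2, Mybl2 was at −1.37 and −1.09. Few of all genes passed in that fit without a control replicate, as given above. Corrected and without control replicate 1 or 2, 0 of the 19 passed, with Mybl2 at −1.23 and −1.24 (edgeR adjusted p = 0.125 and 0.120).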

How the data were processed

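RNA was sequenced in 4 libraries, 2 control and 2 ATRA, grouped by sample title. The authors deposited raw counts, 1 whole number per gene. Tools named in the submitters' processing notes are HTSeq 0.6.0, TopHat2 2.0.7, Cuffdiff 2.0.2 and Cufflinks 2.0.2, beside the build mm10. For the counting, annotation and strand setting are not given in the sources used. The 5 summary lines of each table stayed out of library sizes and tests, and reads in no gene made up 63.4% to 66.2% of all counted reads. Symbols were matched to GENCODE M21 (GRCm38), 21777 directly and 1278 by an older symbol, with 365 unmatched, for coordinates, length, GC content and exon overlaps. Only the largest overlaps are printed with their members. The other members share at most 10.8% of their exon bases with any 1 gene (Orc1 with Gm12743). Among them are Mcm7 (7.25% with Ap4m1), Plk1 (7.09% with Gm44985) and Orc6 (6.93% with Vps35), all on the opposite strand.

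Counts were fitted with edgeR 4.0.16 in R 4.3.3: expression filter by group, TMM factors, robust quasi-likelihood F test, Benjamini-Hochberg adjustment over 14256 genes and a threshold of 0.05. SE is the size of the log2 fold change over the square root of F. For the GC correction, log2 CPM deviations (prior count 2) of genes above a mean log2 CPM of 1 were fitted on transcript GC content by a robust spline of 5 degrees of freedom per library (MASS 7.3.60.0.1) and entered as offsets. It was planned because earlier results showed the libraries to differ along GC content, and the biological coefficient of variation was 28.3% without it and 15.4% with it. Scripts were tested on simulated data. DESeq2 1.42.0, its size factors, no filter, a replicate block and leaving out each library were the alternatives.

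The members and lists were chosen with earlier results of these data known. Values in every library are given for members called in either fit, the 3 highest and 3 lowest of each set by uncorrected fold change, and the most abundant per length in each role. From the lists of further replication, further mitosis and regulator genes, up to 3 called genes in each direction with the smallest p were named, and Kif4 beside them. Every called gene of the cell type marker lists was named. Of the genes used to check the treatment labels, 1 is not reported here.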

Additional observations from a re-analysis of the deposited data

How the results depend on the processing

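A member that did not pass is not shown to be unchanged. Member counts were at least 90 in every library, and the part of depth in the calls was not tested. The count over all genes, 161 (103 higher), was 603 (232 higher) with DESeq2 size factors, 4350 by DESeq2's Wald test (30.5% of genes), 2311 with the GC correction, and ranged from 25 to 10289 with a library left out of either fit. Members called, 0 and 0 in the uncorrected fit, were 8 replication and 7 mitosis genes by the Wald test and 0 and 1 with the GC correction, and with a library left out of either fit they ranged from 0 to 21 and from 0 to 20. The replication median, 0.10, was 0.05 with no filter on low counts and 0.02 with the GC correction, and ranged from −0.06 to 0.12 with a library left out. The mitosis median, 0.62, was 0.00 with the GC correction and ranged from 0.01 to 0.90. Their difference, 0.52, was −0.02 with the GC correction and ranged from 0.03 to 0.85. In the GC-corrected fit with an ATRA library left out, 4 members passed with the sign opposite to their uncorrected value. With a library left out of either fit, values ran from −0.36 to 0.39 for Mcm4, −0.39 to 0.15 for Mcm6, −1.36 to 1.26 for Cdt1 and −0.45 to 0.67 for Pcna. The cause was not tested.

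Replicate numbers are not known to pair the libraries: with 2 pairs, the replicate differences of the groups correlated at 0.183 across genes. With the replicate number as a block, 4401 genes were called (30.9%), among them 7 replication genes (1 higher, 6 lower) and 5 mitosis genes (3 higher, 2 lower). With the block and the GC correction together, 2657 genes were called (18.6%), with 4 replication genes, all lower (Mcm5, Mcm7, Mcm10 and Gins2), and 2 mitosis genes (Mki67 higher, Aurka lower), and the medians were 0.00 for replication, −0.01 for mitosis and −0.02 for the difference.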
